A study of Homo sapiens with 37 samples.

Results

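The 10 genes described here belong to the BCL2 family, which sets whether a cell keeps or permeabilizes its outer mitochondrial membrane. They were taken as the rows of the deposited table whose Ensembl identifiers map to the symbols BCL2L11, BCL2L1, MCL1, BCL2, BAX, BAK1, BID, BAD, BBC3 and BIK, and all 10 were found among the 32055 genes of the table. The libraries come from K562, an established human erythroleukemia cell line. In the 26 libraries labelled KO, ZBTB7A had been disrupted by Cas9 with either of a pair of gRNAs, and the 11 libraries labelled control come from cells that received the Cas9 vector with no gRNA. Single sorted cells were grown out for both. Labels give a genotype and a well barcode but no clone, gRNA or day, so libraries are numbered here within each group in accession order, as names only (KO 18, control 7). Libraries of one group can therefore share a clone, and the p-values measure the spread between libraries, which may partly be technical.

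BCL2, BCL-xL (encoded by BCL2L1) and MCL1 are survival proteins that hold the death effectors in check. BAX and BAK1 are the effectors, which form pores in the outer membrane and let cytochrome c escape. The BH3-only proteins BIM (BCL2L11), BID, BAD, PUMA (BBC3) and BIK start this step by binding the survival proteins or by activating the effectors directly. In the erythroid lineage, BCL-xL is the main survival protein of maturing cells, and ZBTB7A is known as a repressor of BCL2L11, so the comparison asks whether these genes move when ZBTB7A is lost.

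The promoters of the members that the results turn on are shown first, because BCL2L11 is the known target of ZBTB7A in this family and BID and BCL2L1 are the members that passed the test. Each is a window of 300 bases around a transcription start site from RefSeq on GRCh38.p14, written 5′ to 3′ on the strand of the gene. Where RefSeq lists several starts, the window shown is the one listed first. Capitals mark the letters GACCC or their reverse complement GGGTC, a short ZBTB7A-type motif searched on both strands. BID lies on the minus strand at chr22:17774420-17774719, BCL2L11 on the plus strand at chr2:111120664-111120963 and BCL2L1 on the minus strand at chr20:31723914-31724213.
BID: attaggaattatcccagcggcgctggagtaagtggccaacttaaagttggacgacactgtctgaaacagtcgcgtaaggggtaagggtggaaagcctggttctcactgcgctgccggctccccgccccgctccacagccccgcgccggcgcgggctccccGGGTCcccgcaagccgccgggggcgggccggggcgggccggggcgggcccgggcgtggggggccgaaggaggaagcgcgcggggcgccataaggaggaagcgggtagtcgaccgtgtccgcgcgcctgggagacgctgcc
BCL2L11: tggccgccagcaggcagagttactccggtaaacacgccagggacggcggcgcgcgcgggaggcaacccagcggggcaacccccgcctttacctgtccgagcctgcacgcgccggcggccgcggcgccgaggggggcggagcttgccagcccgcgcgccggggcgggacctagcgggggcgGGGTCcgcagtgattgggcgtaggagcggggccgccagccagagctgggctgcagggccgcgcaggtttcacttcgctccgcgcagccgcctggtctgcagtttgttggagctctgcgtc
BCL2L1: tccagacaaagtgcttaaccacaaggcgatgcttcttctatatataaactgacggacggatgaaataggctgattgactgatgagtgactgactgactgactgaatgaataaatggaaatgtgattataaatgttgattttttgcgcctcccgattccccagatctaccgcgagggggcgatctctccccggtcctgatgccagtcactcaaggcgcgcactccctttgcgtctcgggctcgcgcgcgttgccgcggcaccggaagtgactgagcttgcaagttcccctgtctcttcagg
The windows of BID and BCL2L11 each held 1 match, and that of BCL2L1 held none. A match was present in 6 of the 8 members with a window, and in 47.6% of all 35116 windows of the same length. AGATAA, the motif of the erythroid factor GATA1, was searched on both strands too and was in none of the 8 windows and in 10.3% of all windows. The GC content of the window was 71.7% for BID, 74.7% for BCL2L11 and 52% for BCL2L1.

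Each library holds counts of unique molecular identifiers (UMIs), which tag single captured molecules, read from the 3′ end of transcripts. A count of this kind does not grow with transcript length. It can still fall short where exons of another gene cover the 3′ end, as for BAD, so the order of levels between genes is that of the counts. Total UMIs ranged from 1070250 to 4270901 in KO and from 563235 to 4710809 in control libraries, the lowest being control 7. Barcode composition was uneven between the groups. Up to 2 of the 6 barcode bases were G or C in 12 KO and 8 control libraries (AT-rich), while at least 4 were in 12 KO and 1 control library (GC-rich), and GC-rich libraries alone therefore allow no test. Of 12 erythroid markers, 11 were measured, and their summed level ranged from 4047 to 8781 (median 7182) counts scaled to CPM (UMIs of a gene per 1e+06 UMIs of the library, with TMM scaling) in control and from 2843 to 9370 CPM (median 5586) in KO libraries. Globin genes made up most of this sum, and the list went both ways. By log2 fold change 2 of the 11 were higher in KO, ALAS2 (1.41, edgeR adjusted p = 0.00577) and EPOR (0.97, edgeR adjusted p = 1.80e-08). Lower were 3, TFRC (-0.37, edgeR adjusted p = 1.51e-05), KLF1 (-0.22, edgeR adjusted p = 0.0390) and GATA1 (-0.19, edgeR adjusted p = 0.0303). Of all tested genes 17.7% were higher and 16.2% lower at an adjusted p below 0.05. The measured markers of HL60, a myeloid line also used in the study (2 of 7), summed to 77.8 to 107 CPM in control and 33.7 to 96.9 CPM in KO libraries, and the lymphoid markers (4 of 5) to 16.3 to 74.1 and 1.36 to 30.4 CPM. The part of these shifts in the results was not tested, and in bulk libraries fewer cells of a type and less RNA per cell cannot be told apart. The HL60 sum was almost wholly CD33, with 38 to 477 UMIs and a log2 fold change of -0.66 (edgeR adjusted p = 3.88e-08), while the granulocyte gene CEBPE held at most 1 UMI in any library. Most of the lymphoid sum was CD3D, with 1 to 329 UMIs and a log2 fold change of -1.85 (edgeR adjusted p = 4.09e-06), while CD3E held at most 2 UMIs. ZBTB7A itself had 21 to 296 UMIs in control and 62 to 314 in KO libraries, with a fold change of 0.12 on the log2 scale (SE 0.09, edgeR adjusted p = 0.331), and 3′ counts do not show a small edit in the coding sequence, so this level does not check the labels. KO 18 was the KO library closest to the controls for BID, and its values are given where they matter.

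Among the 10 members, BID separated the groups most clearly, although its log2 fold change of -0.48 was under 0.5 in size. Every KO library had less BID than every control library. BCL2L1 was higher in KO by a small margin, BCL2L11 did not differ beyond the spread between libraries, and BCL2 was spread widely to both sides of the controls within KO. Counts were compared by edgeR's quasi-likelihood test, adjusted over all 10661 genes that passed the default filter on low counts. Of the members, 8 were tested and MCL1 and BIK were under the filter. An adjusted p below 0.05 was reached by 2 of the 8, 1 lower and 1 higher in KO, against 33.8% of all tested genes, so the members' share was not above that of all genes. The median log2 fold change of the 8 was 0.12, against -0.0046 for all tested genes. With an absolute log2 fold change over 0.5 required as well, 10.2% of all tested genes passed (6.65% higher and 3.53% lower in KO). None of the 8 members did in the reported edgeR fit or in DESeq2, at an adjusted or unadjusted p below 0.05. In limma-voom 1 member, BCL2, passed both, and BCL2 also did with sample quality weights and in edgeR with surrogate variables. At an unadjusted p below 0.05, 3 members passed in edgeR.

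**Figure D1:**
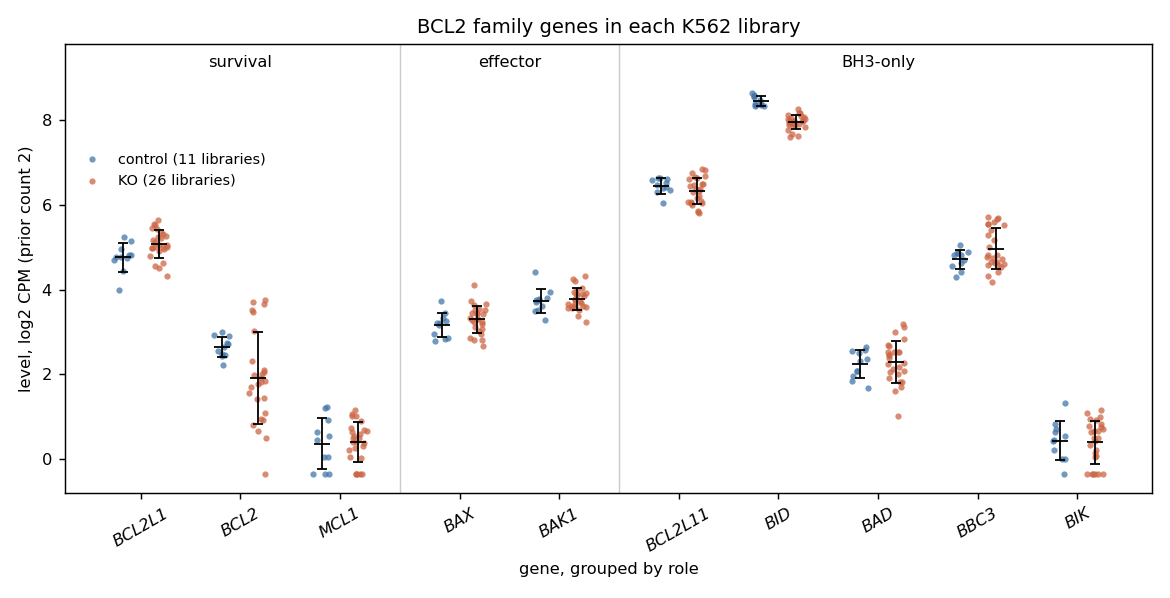
Level of each of the 10 genes in log2 CPM (y axis, prior count 2) in the 11 control and 26 KO libraries, with 1 point per library and the mean and SD of each group in black. The KO points of BID all lie below the control points, those of BCL2 reach from -0.35 to 3.76 around a narrow control group, and MCL1 and BIK lie near the floor in both groups.

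The order of the levels was led by the BH3-only genes. In control libraries BID stood first at a mean of 8.46 log2 CPM, followed by BCL2L11 at 6.45, and their ranges overlapped neither with each other nor with the next gene. BCL2L1 at 4.76 and BBC3 at 4.72 did not differ beyond their spread, with BCL2L1 above BBC3 in 6 of 11 control libraries. BAK1, BAX, BCL2 and BAD followed at 3.73, 3.17, 2.65 and 2.24 log2 CPM, and each overlapped in range with its neighbour in that order. In KO libraries BID and BCL2L11 kept the first 2 places without overlap, and BCL2 at 1.91 came after BAD at 2.30, with BAD above BCL2 in 16 of 26 libraries.
Summed over the members of each role, BH3-only genes held a median of 467 CPM in control and 373 CPM in KO libraries. Survival genes held 32.7 and 37.5 CPM, and the effectors 19.3 and 21.5 CPM. As a share of the 10 genes together, survival genes had a median of 6.39% in control (4.51% to 8.43%) and 9.12% in KO libraries (5.24% to 12.5%), and BID alone had 66.8% and 58.5%. These shares describe the counts only and carry no test, since BID makes up most of the sum, and they hold MCL1 at almost no counts and BAD with a covered 3′ end.

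BID codes for the BH3-only protein that caspase-8 cleaves, which links death receptors to the mitochondria. Its gene, ENSG00000015475, spans chr22:17734138-17774770 on the minus strand (GRCh38). Control libraries ranged from 8.34 to 8.65 log2 CPM with a median of 8.39, from 234 to 1723 UMIs. KO libraries ranged from 7.61 to 8.26 with a median of 7.98, from 228 to 1109 UMIs. The groups did not overlap, and the highest KO value, 8.26, was that of KO 18. Among all tested genes 0.234% had no overlap between the groups and 0.0657% had every KO library below every control.
Controls averaged 8.46 ± 0.12 log2 CPM (SD, n = 11), and KO libraries averaged 7.96 ± 0.16 (SD, n = 26). BID fell by 0.48 on the log2 scale (standard error 0.05, 95% interval -0.58 to -0.38, edgeR adjusted p = 4.33e-10), which is a level lower by 28.4%. By permutation of the group labels (two-sided, on mean log2 CPM) p was 1e-05, which is the lowest value possible with 100000 resamples. Among AT-rich barcodes alone, where the 8 controls ranged from 8.34 to 8.65 and the 12 KO libraries from 7.77 to 8.17, the log2 fold change was -0.49 (edgeR adjusted p = 3.03e-07). Leaving out KO 18 did not end the call, nor did leaving out any other single library, with log2 fold changes between -0.49 and -0.46.
Counting error was small for this gene, since counting alone would give an SD of about 0.052 in control and 0.064 in KO libraries. BCL2L13, a related gene whose 3′ end faces that of BID on the same chromosome (17628855 to 17730855, plus strand), had a log2 fold change of 0.03 (edgeR adjusted p = 0.756).

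BCL2L11 codes for BIM, the BH3-only protein that sets the death threshold of many blood cells. It is encoded on the plus strand at chr2:111119378-111168444 (ENSG00000153094). Control libraries ranged from 6.04 to 6.64 log2 CPM with a median of 6.48, from 38 to 407 UMIs. KO libraries ranged from 5.80 to 6.85 with a median of 6.36, from 72 to 418 UMIs. The KO libraries reached past the controls at both ends, with 6 above the highest control and 4 below the lowest. That lowest control, at 6.04 with 38 UMIs, was control 7, the library with the fewest UMIs. The next lowest was control 3 at 6.30, and more than 4 KO libraries lay below that value.
Controls averaged 6.45 ± 0.18 log2 CPM (SD, n = 11) against 6.33 ± 0.31 (SD, n = 26) for KO. BCL2L11 differed by -0.09 on the log2 scale (SE 0.09, 95% interval -0.27 to 0.09, edgeR adjusted p = 0.449; permutation p = 0.235, two-sided). The interval reaches to a rise of 0.09 in KO. It takes the libraries as independent, and where libraries share a clone it would be too narrow, so it sets no firm upper bound. By mean CPM, BCL2L11 ranked 2662 of 10661 tested genes, and counting alone would give an SD of 0.104 in control and 0.112 in KO libraries. KO 18 had the highest KO value, 6.85. With AT-rich barcodes only, the fold change was -0.17 (log2, edgeR adjusted p = 0.250).
Over the 26 KO libraries, the gene with the level most like that of BCL2L11 among 8586 genes with at least 10 CPM was MCMBP (Spearman rho 0.90, Pearson r 0.90), followed by NDUFAF6 (rho 0.89), ING2 (0.89), GLOD4 (0.89) and SLBP (0.89). For BID the most alike were GALNT12 (rho 0.82), HES6 (0.82), MDH1 (0.81), KCTD3 (0.81) and SNX5 (0.80). These genes were picked for their likeness and libraries may share clones, so the values are a description with no test. Over the 11 control libraries, rho between BCL2L11 and MCMBP was -0.29.

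BCL2L1 codes for BCL-xL and passed the test, whereas BCL2 did not. It occupies chr20:31664452-31723989 on the minus strand (ENSG00000171552). Control libraries ranged from 3.99 to 5.24 log2 CPM with a median of 4.78, from 16 to 167 UMIs. KO libraries ranged from 4.31 to 5.64 with a median of 5.05, from 35 to 127 UMIs. The groups overlapped over most of their range, with 9 of 26 KO libraries past the top control and none under the lowest one.
From a mean of 4.76 ± 0.34 log2 CPM (SD, n = 11) in control, the level rose to 5.08 ± 0.33 (SD, n = 26) with KO. This was a rise of 0.32 on the log2 scale (SE 0.12, 95% interval 0.09 to 0.56, edgeR adjusted p = 0.0300; permutation p = 0.0132, two-sided). The call was close to the threshold. It was lost with limma-voom (0.29, adjusted p = 0.0538), with no filter on low counts (0.31, edgeR adjusted p = 0.0739), when libraries were thinned to the smallest UMI total (0.34, edgeR adjusted p = 0.1999), without control 1 (0.29, edgeR adjusted p = 0.0649) and without control 5 (0.28, edgeR adjusted p = 0.0613). Control 5 was the lowest control at 3.99 and the only one with a GC-rich barcode. Restricted to AT-rich barcodes it was 0.39 (edgeR adjusted p = 0.0360).

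BCL2 codes for the founding survival protein of the family. It occupies chr18:63123346-63320128 on the minus strand (ENSG00000171791). It was measured on few molecules, with 3 to 31 UMIs per control and 0 to 34 per KO library. Control libraries stayed between 2.23 and 3.01 log2 CPM with a median of 2.65. KO libraries ranged from -0.35 to 3.76 with a median of 1.83, and 19 of 26 lay below the lowest control while 6 lay above the highest.
The SD was 0.24 in control and 1.08 in KO libraries, and counting alone would give about 0.41 and 0.49. The counting values hold no prior count, whereas the levels hold one of 2, so at so few UMIs they are unlike measures. The 6 KO libraries above the controls were KO 18 at 3.02, KO 7 at 3.49, KO 23 at 3.52, KO 21 at 3.67, KO 19 at 3.70 and KO 9 at 3.76. At the other end KO 25 had no UMI of BCL2, and KO 22 and KO 24 had 1 each. Of the 6 high libraries 4 had GC-rich and 2 AT-rich barcodes, and the 5 lowest were all AT-rich.
For BCL2 edgeR gave -0.35 on the log2 scale (SE 0.33, 95% interval -1.02 to 0.31, adjusted p = 0.436). Other methods gave other values, and the cause was not tested. Permuting the groups over mean log2 CPM gave p = 0.0331 (two-sided permutation test), limma-voom gave a log2 fold change of -0.76 (adjusted p = 0.0343), limma-voom with sample quality weights -0.67 (adjusted p = 0.0367), and edgeR with surrogate variables -0.61 (adjusted p = 0.00252). In AT-rich libraries only, BCL2 was at -0.60 (edgeR adjusted p = 0.323).

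BBC3 codes for PUMA, a BH3-only protein best known as a p53 target, and also varied more within KO than within control libraries. Its minus-strand gene spans chr19:47220822-47232766 (ENSG00000105327). Control libraries ranged from 4.31 to 5.05 log2 CPM with a median of 4.82, from 12 to 128 UMIs. KO libraries ranged from 4.19 to 5.72 with a median of 4.79, from 22 to 165 UMIs. The medians were close, yet 10 KO libraries lay above the highest control and 1 below the lowest.
Its SD was 0.22 in control and 0.48 in KO libraries, with about 0.19 and 0.18 from counting alone. BBC3 was higher by 0.31 on the log2 scale without passing (SE 0.15, 95% interval 0.00 to 0.62, edgeR adjusted p = 0.110; permutation p = 0.106). With surrogate variables BBC3 passed at a log2 fold change of 0.22 (edgeR adjusted p = 0.0171), while among AT-rich barcodes alone it was 0.12 (edgeR adjusted p = 0.665).
Of the 6 KO libraries with BCL2 above the controls, KO 7 had BBC3 at 5.42, KO 23 at 5.72, KO 21 at 5.56, KO 19 at 5.55 and KO 9 at 5.53, all above the highest control, and KO 18 had it at 4.75. High BBC3 also occurred with low BCL2, as in KO 11 (5.66 and 1.85) and KO 20 (5.68 and 1.82).

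**Figure D2:**
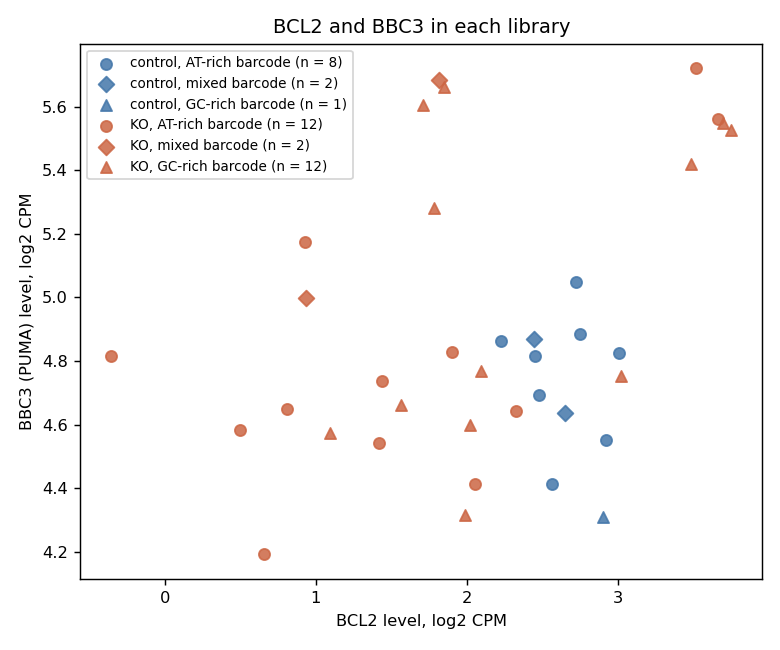
Level of BBC3 (y axis, log2 CPM) against that of BCL2 (x axis, log2 CPM), with 1 point per library, colored by group and shaped by barcode composition. Control libraries stay together between 2.23 and 3.01 for BCL2, while KO libraries scatter to both sides and 5 of them stand apart with BCL2 at 3.49 to 3.76 and BBC3 at 5.42 to 5.72.

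The effector genes did not pass the test. BAX (ENSG00000087088, chromosome 19, 48954815 to 48961798) ranged from 2.80 to 3.72 log2 CPM in control (median 3.21) and from 2.67 to 4.12 in KO libraries (median 3.31). The log2 fold change of BAX was 0.17 (standard error 0.12, 95% interval -0.07 to 0.42, edgeR adjusted p = 0.289; permutation p = 0.262), and with surrogate variables it was 0.30 (edgeR adjusted p = 0.0452). BAK1 (ENSG00000030110, chromosome 6, 33572547 to 33580293) ranged from 3.28 to 4.41 in control and from 3.24 to 4.31 log2 CPM in KO libraries, with medians of 3.75 and 3.74. Its log2 fold change was 0.10 (standard error 0.10, 95% interval -0.11 to 0.31, edgeR adjusted p = 0.499; permutation p = 0.631). The spread of both within a group was about that of counting alone, for which the SD in control libraries would be 0.335 for BAX and 0.271 for BAK1. Here too the counting values hold no prior count, so the likeness is rough.
BAD, the BH3-only protein that 14-3-3 proteins hold inactive, lies on chromosome 11 from 64269830 to 64284704 (ENSG00000002330). It had 3 to 20 UMIs per control and 2 to 23 per KO library. Levels of BAD ranged from 1.69 to 2.65 in control and from 1.02 to 3.20 log2 CPM in KO libraries, with medians of 2.32 and 2.33. The log2 fold change was 0.14 (standard error 0.18, 95% interval -0.22 to 0.50, edgeR adjusted p = 0.584; permutation p = 0.72). Exons of GPR137 on the opposite strand cover 53.6% of its last 500 exonic bases in GENCODE release 44. Whether the counting used strand is not given in the sources used here, so reads of both genes cannot be told apart.
MCL1 and BIK gave almost no counts. MCL1, a short-lived survival protein on which many blood cells rely, had 0 to 7 UMIs per control and 0 to 4 per KO library, 61 in all 37 libraries together. BIK, a BH3-only protein at the endoplasmic reticulum, had 0 to 4 and 0 to 5 UMIs, 58 in all. No UMI of MCL1 was counted in 8 libraries and none of BIK in 7. At these counts no difference between the groups was detectable. No exon of another gene covers the last 500 exonic bases of MCL1 or BIK in GENCODE release 44, and the older annotation used for the counts was not analysed here.

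**Figure D3:**
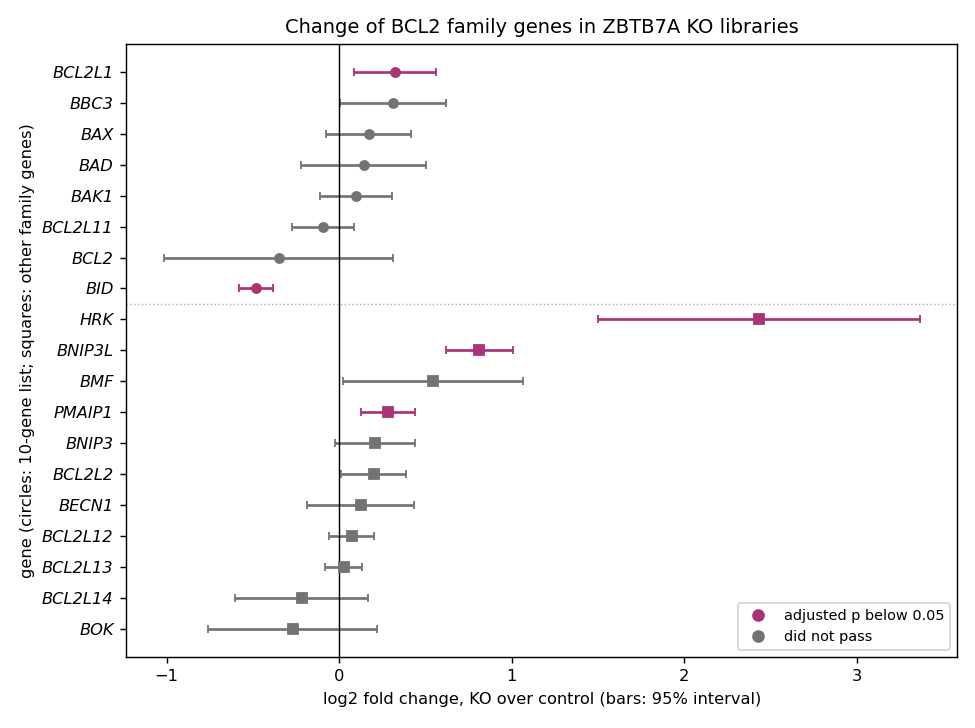
Log2 fold change of KO over control (x axis) with its 95% interval for the 8 tested genes of the list (circles) and 11 other tested genes of the family (squares), colored where the edgeR adjusted p was below 0.05. BID is the one gene that passed on the lower side, and HRK, BNIP3L, BCL2L1 and PMAIP1 passed on the higher side.

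Outside the 10 genes, the other members of the family moved in 1 direction only where they passed. Of 14 further family genes, 11 were tested and 3 passed, all 3 higher in KO. Of all tested genes 17.7% were higher. Among the 3, HRK had a median of 2 UMIs in control and 11 in KO libraries and so passed the count filter through the KO libraries, where it could hardly be called other than higher, and the count of 3 is given as a description. HRK, a BH3-only gene best known from neurons, averaged 0.68 ± 0.63 log2 CPM over the controls (SD, n = 11) against 2.24 ± 1.19 with KO (SD, n = 26), levels that the prior count of 2 draws together at so few UMIs. The fold change fitted to its counts was 2.43 on the log2 scale (SE 0.46, edgeR adjusted p = 8.55e-05). It was counted on 0 to 6 UMIs per control and 0 to 38 per KO library, 18 KO libraries lay above the highest control, and KO 18 held 1 UMI. Among AT-rich barcodes alone HRK was under the count filter.
BNIP3L, a BH3-related gene of mitochondrial clearance in maturing red cells, rose from 5.24 ± 0.26 to 6.04 ± 0.28 log2 CPM (SD, n = 11 and 26). Its log2 fold change was 0.81 (standard error 0.10, edgeR adjusted p = 1.62e-08), with 25 of 26 KO libraries above the highest control. PMAIP1, which encodes the MCL1-binding BH3-only protein NOXA, was higher by 0.28 (SE 0.08, edgeR adjusted p = 0.00429), and 0.20 among AT-rich barcodes alone (edgeR adjusted p = 0.0820). BCL2L2, which encodes the survival protein BCL-w, was at 0.20 and did not pass (SE 0.09, edgeR adjusted p = 0.0988), with 9 KO libraries above the highest control. BMF, another BH3-only gene, was at 0.54 on the log2 scale and did not pass (SE 0.26, edgeR adjusted p = 0.1005). BCL2A1 and BCL2L15 were under the count filter, and no identifier of the deposited counts mapped to BCL2L10.

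The genes on either side of the mitochondrial step changed little in size. For the counts that follow, 17.7% of all tested genes passed higher in KO and 16.2% lower. In 18 genes of the apoptosome, caspases and their inhibitors, 14 were tested and 3 passed, 1 higher and 2 lower, with a median log2 fold change of 0.02. CYCS, which encodes the cytochrome c that BAX and BAK1 release, had a log2 fold change of -0.24 (edgeR adjusted p = 7.85e-04), and CASP10, an initiator caspase, of -0.37 (edgeR adjusted p = 0.00416). BIRC6, a large inhibitor of apoptosis protein, had 0.18 (edgeR adjusted p = 0.00690). CASP8, whose product cleaves BID, had a log2 fold change of -0.16 and did not pass (edgeR adjusted p = 0.212). Of the 3 outer membrane channel genes, VDAC3 and VDAC2, which anchors BAK1, were lower at -0.29 and -0.17 (edgeR adjusted p = 0.00266 and 0.00521), and VDAC1 did not pass at -0.06. VDAC3 no longer passed among AT-rich barcodes alone (-0.29, edgeR adjusted p = 0.0569), and VDAC2 and CASP10 no longer passed after thinning to the smallest UMI total (-0.17 and -0.18, edgeR adjusted p = 0.0515 and 0.569).
Of 8 death receptor genes, 6 were tested and 1 passed, TNFRSF10A, a receptor for TRAIL, with a log2 fold change of -0.27 (edgeR adjusted p = 0.00479). Exons of TNFRSF10A-AS1 on the opposite strand cover 44.8% of its last 500 exonic bases. Among 18 regulators of BIM, BAD and MCL1, all 18 were tested and 7 passed, 6 of them higher, against 17.7% of all tested genes. MAPK3, which encodes an ERK kinase that marks BIM for destruction, had a log2 fold change of 0.45 (edgeR adjusted p = 6.72e-04). BTRC, a ubiquitin ligase subunit that recognizes BIM, was lower at -0.34 (edgeR adjusted p = 7.06e-04). FOXO1, a transcription factor of the group that activates BCL2L11, passed narrowly at 0.40 (edgeR adjusted p = 0.0434) and passed neither among AT-rich barcodes alone (0.34, edgeR adjusted p = 0.150) nor in limma-voom (0.36, adjusted p = 0.0672). Thinning to that total took MAPK3 to 0.33 (edgeR adjusted p = 0.157). Over the 5 lists together 16 of 52 tested genes passed, or 30.8%, near the 33.8% of all tested genes.

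**Figure D4:**
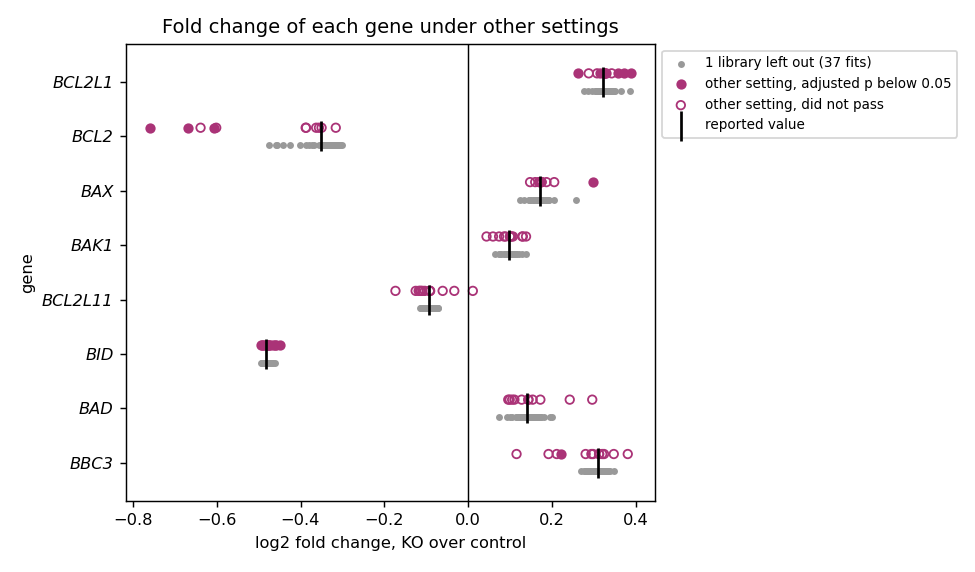
Log2 fold change of KO over control (x axis) for the 8 tested members under the reported setting (black bars), with 1 library left out in turn (grey, 37 fits) and under the other processing settings (colored, filled where the adjusted p was below 0.05). BID stays between -0.49 and -0.45 with an adjusted p below 0.05 in each fit plotted, BCL2 moves between -0.76 and -0.30, and BCL2L11 lies between -0.17 and 0.011 and passes in none.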

How the data were processed

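SCRB-seq, a bulk method that reads transcript 3′ ends, was run on K562 RNA. The authors mapped reads to hg38 with STAR (2.6.0a in the submitters' processing notes), used zUMIs (version not given in the sources used here) to count UMIs on Ensembl GRCh38.84 genes, and deposited the UMI counts without normalization. Symbols and positions came from GENCODE release 44, which paired 31323 of 32055 identifiers.

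In edgeR 4.0.16 (R 4.3.3), genes passed filterByExpr, TMM factors were computed, and a robust quasi-likelihood model holding group alone was fitted. P-values were adjusted by Benjamini-Hochberg over 10661 genes, and SE was taken as |log2 fold change| divided by the root of F. Levels are log2 CPM after TMM with a prior count of 2. The SD given for counting alone was computed without a prior count. Permutation tests, run on the 8 tested members and not adjusted, used 100000 resamples. No pair among 380 within-group pairs of libraries agreed within sampling noise (chi-square), and none was merged. That test weighs counting noise alone, so it cannot show whether libraries share a clone. The fits were tested on simulated counts.

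Members and lists were chosen with earlier results of these data known. Named are all members, up to 4 genes per further list that passed with the largest change, and the 5 genes most alike by Spearman correlation; 1 gene under this rule is not reported here. CASP8, BMF, BCL2L2, VDAC1, BCL2L13, CD33, CD3D, ALAS2, EPOR, TFRC, KLF1 and GATA1 fall outside this rule. They were added after their values were seen. Alternatives were limma-voom (limma 3.58.1) without and with quality weights, DESeq2 1.42.0, RLE or library size scaling, other filters, barcode class, AT-rich barcodes alone, surrogate variables (sva 3.50.0), single libraries left out, thinning, other thresholds and prior counts.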

Additional observations from a re-analysis of the deposited data

How the results depend on the processing

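BID kept its direction and an adjusted p below 0.05 in every alternative, with log2 fold changes from -0.49 to -0.45. Its call was lost only under the added fold change threshold of 0.5, which its size did not reach. The number of members that passed, 2 of 8, was 1 with no filter on low counts and 1 at an adjusted p below 0.01. It was 1 when libraries were thinned to the smallest total of 563235 UMIs (4 members tested). It was 5 with 7 surrogate variables, 3 with sample quality weights, and 1 to 2 with each library left out. With the fold change threshold it was 0 in the reported edgeR fit (0 at an unadjusted p), 0 in DESeq2 and 1 in limma-voom. BCL2 also passed that threshold with sample quality weights and with surrogate variables. The number on the other lists, 16, was 29 with surrogate variables, 19 with sample quality weights, 11 of 41 tested when thinned, 2 with the fold change threshold and 14 to 18 with each library left out. ZBTB7A passed with surrogate variables at a log2 fold change of 0.20 (edgeR adjusted p = 0.0117) and ranged from 0.08 to 0.16 with each library left out. Thinning turned the log2 fold change of BCL2L11 to 0.011 (edgeR adjusted p = 0.959); its adjusted p was 0.225 to 0.959 over the alternatives, and the cause was not tested. FOXO1 lost its call in 17 of the 37 fits that left out 1 library, with adjusted p-values up to 0.0909 from edgeR: KO 3, control 3, KO 4, KO 5, KO 10, control 5, KO 13, KO 14, KO 15, KO 16, control 6, control 7, control 8, control 9, KO 24, KO 25 and KO 26. Depth limits BCL2, BAD, HRK, MCL1 and BIK most, whose levels rest on few UMIs, and the mean level of MCL1, BIK and control BCL2 moved by more than 1 SD under other prior counts. No paired analysis was possible because the labels give no replicate numbers.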

Other observations

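MCL1 held 61 UMIs over all 37 libraries although it is known as a broadly expressed gene, fewer than BCL2 with 456 and BCL2L1 with 2937. The same table held 176 UMIs of APAF1, 29 of FADD, 212 of DIABLO and 140 of ENDOG, core genes of the death pathway. For these 4, exons of other genes cover 82.2% to 100% of the last 500 exonic bases in GENCODE release 44, whereas for MCL1 none do. Among the 70 genes of the family and pathway lists with a position there, the 8 with at least 50% of that window covered had a median of 308 UMIs over all libraries (29 to 2036), against 4533 for the other 62 (2 to 75898). The part of overlap in the low counts was not tested, and for MCL1 the annotation the counts were made with was not analysed here.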
